A study of Homo sapiens with 16 samples.

Results

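Metallothioneins are small cysteine-rich proteins that bind zinc and copper. They were followed in PC3 and HeyA8 cells together with MTF1, the zinc sensor that switches their genes on, and SLC30A1, the zinc exporter ZnT1. The 8 genes MT1E, MT1F, MT1G, MT1M, MT1X, MT2A, MTF1 and SLC30A1 were taken by symbol out of 26485 genes in the count table. They were chosen by their measured levels, since part of the metallothionein cluster was near zero in PC3 cells, so the difference in level between the lines is given here as a description without a test. In PC3 cells, 6 of the 8 had enough reads to be tested (MT1F, MT1M, MT1X, MT2A, MTF1 and SLC30A1). In HeyA8 cells, 6 of the 8 did as well, with MT1E in place of MT1M. MT1G was at 0 reads in all 16 libraries and could not be tested.

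RNA was sequenced from PC3, a prostate cancer cell line, and HeyA8, an ovarian cancer cell line. Both lines had 4 conditions, namely mock treatment and transfection with siNT1, with siGGGGGC or with siCAG, and each condition was sampled once at 24 h and once at 48 h. siNT1 is the nontoxic control siRNA of the study, and siGGGGGC is a toxic siRNA named after its 6mer seed. siCAG carries a name that the sources used here do not explain. The sample labels give 1 nM for the siRNAs and the study's methods another dose. Between 27937092 and 29971612 reads per library were counted on genes in PC3 cells and between 29128446 and 31790209 in HeyA8 cells. The 24 and 48 h libraries of a condition serve as its 2 replicates, so every SD below also holds the difference between the time points. Per the study's methods, cells were reverse transfected in culture plates, and the medium was changed at 24 h in the wells that were lysed at 48 h.

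Most human metallothionein genes lie side by side on chromosome 16, and their proteins hold the metals in clusters of cysteine thiols. When free zinc rises, MTF1 enters the nucleus, binds metal response elements in metallothionein promoters and in that of SLC30A1, and raises their transcription. The same genes also respond to cadmium, glucocorticoids and oxidative stress, which is why they are read as reporters of the metal and redox state of a cell.

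The labelled origin of the lines was read from marker genes. HOXB13, a prostate homeobox gene, had a median of 232 CPM (reads scaled to library size by the TMM method over all 16 libraries) in PC3 cells and 1.07 CPM in HeyA8 cells. TMPRSS2, a protease of prostate epithelium, had 22.8 CPM in PC3 cells and 0 in HeyA8 cells, whereas KLK2 and KLK3 were at 0 in both lines. The epithelial keratins KRT8 and KRT18, listed with them, were higher in HeyA8 cells (750 and 538 CPM) than in PC3 cells (212 and 250 CPM), and with them the sum of the 9 prostate markers (1342 against 732 CPM). PAX8, a Müllerian lineage factor, had 166 CPM in HeyA8 cells and 4.31 CPM in PC3 cells, whereas ESR1 and MUC16 were at or near 0 in HeyA8 cells. The siCAG libraries of HeyA8 stood apart. Of 12429 genes compared, 456 at 24 h and 622 at 48 h were over 4-fold away from the median of the line, against 0 to 143 in the 6 other HeyA8 libraries.

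The metallothionein genes are close copies, and this bears on how their reads are counted. Pairwise, the coding sequences of the 6 metallothioneins (186 bases, 189 in MT1G) were between 88.7 and 93.7% identical over 15 pairs, and each encoded 20 cysteines. The first 90 coding bases of the 5 metallothioneins with any reads are shown to let the likeness be seen. They are from GENCODE transcripts on GRCh38, written 5′ to 3′, with the cysteine codons TGC and TGT in capitals.
MT2A: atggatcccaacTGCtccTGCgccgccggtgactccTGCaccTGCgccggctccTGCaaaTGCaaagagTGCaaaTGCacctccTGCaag
MT1X: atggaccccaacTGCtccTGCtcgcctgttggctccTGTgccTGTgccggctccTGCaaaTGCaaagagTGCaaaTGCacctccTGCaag
MT1E: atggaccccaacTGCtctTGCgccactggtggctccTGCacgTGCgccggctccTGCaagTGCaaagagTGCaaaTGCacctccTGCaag
MT1F: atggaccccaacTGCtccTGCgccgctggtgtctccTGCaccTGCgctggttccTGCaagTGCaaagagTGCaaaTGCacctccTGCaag
MT1M: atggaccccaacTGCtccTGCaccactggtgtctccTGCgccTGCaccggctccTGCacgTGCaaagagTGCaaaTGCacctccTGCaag
The 9 cysteine codons fell in the same places in all 5 genes. The differences lay between them, apart from cysteine codons of MT1X that read TGT where the other genes shown have TGC. Stretches of 50 bases that also occur in transcripts of other genes made up 5.34% of the annotated MT1E transcript, 6.12% of MT1F, 14.61% of MT1M, 11.08% of MT2A and 50.99% of MT1X. How reads that fit several genes were counted is not given in the sources used here, so part of a count, or a count of 0, could rest on that choice. Counts of MT1X are the least certain among the members with many reads. The annotated transcript of the pseudogene MT1L, which lies between MT2A and MT1E, shared all such stretches with other annotated genes, none of them a member. That transcript has 186 bases and the gene model that was counted 426, so the check does not cover the whole model.

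In order along the chromosome 16 cluster (hg38, plus strand unless stated), the genes were MT2A (56608566 to 56609497), MT1L (56617461 to 56618818), MT1E (56625673 to 56627113), MT1M (56632622 to 56633986), MT1F (56657943 to 56659303), MT1G (56666735 to 56668065, minus strand) and MT1X (56682470 to 56684196), each with 3 exons. MTF1 (37809567 to 37859620, 11 exons) and SLC30A1 (211575039 to 211578757, 2 exons) lie on the minus strand of chromosome 1. MT2A had by far the highest level in both lines, with a median of 562 CPM per kb of gene model in PC3 cells and 1116 CPM per kb in HeyA8 cells. In PC3 cells the order by median level per kb went on with MT1X at 40.2, SLC30A1 at 6.80, MTF1 at 4.49, MT1F at 2.51 and MT1M at 1.18 CPM per kb. The order was another one in HeyA8 cells. There MT1L followed at 88.0 CPM per kb and MT1E at 67.9, then MT1X at 19.6, MTF1 at 8.60, SLC30A1 at 7.11 and MT1F at 0.179 CPM per kb. Neighbours in this order whose libraries overlapped were SLC30A1 and MTF1 as well as MT1F and MT1M in PC3 cells, and MT1L and MT1E, MT1E and MT1X, and MTF1 and SLC30A1 in HeyA8 cells. Within a library MT1E was nonetheless above MT1X in all 8 HeyA8 libraries, by 2.58- to 4.39-fold per kb. The order of the other 4 pairs was not the same in every library, with SLC30A1 above MTF1 in 7 of 8 PC3 libraries, MT1F above MT1M in 7 of 8, MT1L above MT1E in 6 of 8 HeyA8 libraries and MTF1 above SLC30A1 in 5 of 8. The deposited gene model and the annotated transcript differed most in length for SLC30A1 (2018 and 5893 bases), MT1L (426 and 186) and MT1F (924 and 425), so their levels per kb are the least comparable ones, and the order of SLC30A1, MTF1 and MT1F in PC3 cells depends on the length used.

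**Figure D1:**
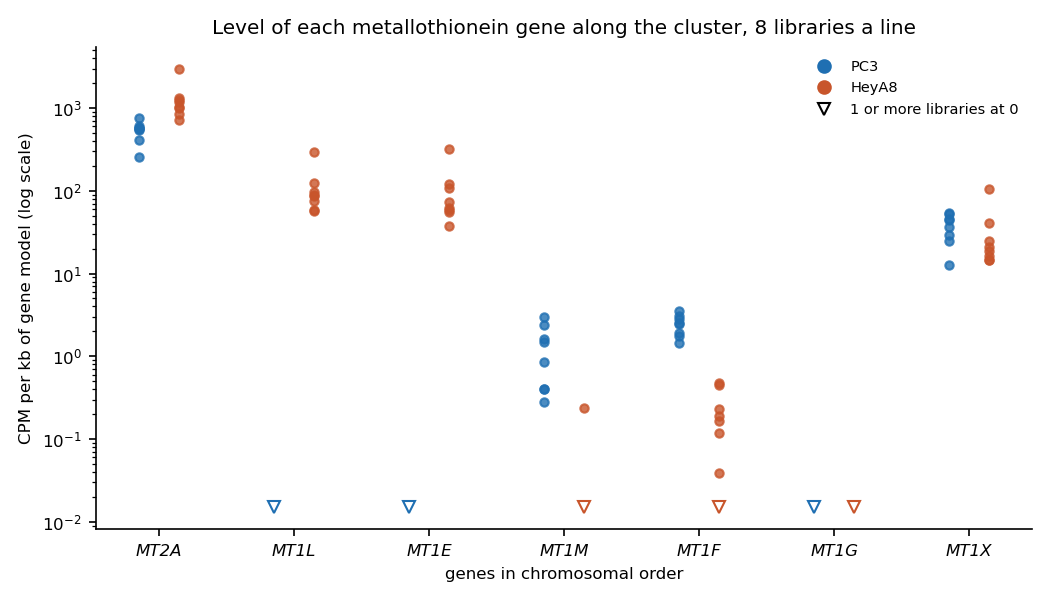
Level of each metallothionein gene in CPM per kb of gene model (log axis) in the 8 PC3 and 8 HeyA8 libraries, with the genes in chromosomal order. Open triangles mark genes with at least 1 library of that line at 0. MT1E and MT1L were at 0 in every PC3 library and at 38.0 CPM per kb or more in every HeyA8 library, while MT1M and MT1F lay the other way.

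The silent part of the cluster was not the same in the lines. MT1E had 0 reads in all 8 PC3 libraries and between 535 and 4394 reads in the HeyA8 libraries. Here 3 reads per library were taken as the limit that a count of 0 allows. The lowest HeyA8 level (19.2 CPM) was then at least 200.6-fold higher than the highest PC3 limit (0.0959 CPM). Its neighbour MT1L behaved alike, with 0 reads in every PC3 library and between 624 and 3394 reads in HeyA8 cells. MT1M, the next gene, was reversed. It had between 4 and 42 reads in PC3 cells, but 3 reads in 1 HeyA8 library and 0 in the other 7. MT1F had between 45 and 111 reads in PC3 cells and between 0 and 12 in HeyA8 cells, which gave medians of 2.32 and 0.166 CPM. At both ends of the cluster as listed above, the genes were active in both lines. MT2A had a median of 235.6 CPM in PC3 and 467.8 CPM in HeyA8 cells, and its ranges in the lines (109 to 314 and 299 to 1247 CPM) overlapped only slightly. MT1X had medians of 16.2 and 7.93 CPM with ranges (5.20 to 21.6 and 5.87 to 42.1 CPM) that overlapped widely. MT1G lay silent between MT1F and MT1X in both lines.

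Of 13 other metallothionein genes and pseudogenes that were looked for, 10 were in the count table. Besides MT1L, MT3 (a metallothionein best known from the brain) had 13 reads over the 8 PC3 libraries, MT1DP had 7 in PC3 cells and 2 in HeyA8 cells, and MT1JP had 1 in PC3 cells. MT1A, MT1B, MT1H, MT1IP, MT1HL1 and MT4 were at 0 throughout. The sum of the 6 metallothionein members was between 115 and 336 CPM in PC3 cells and between 325 and 1453 CPM in HeyA8 cells. MT2A made up between 90.2 and 94.2% of this sum in PC3 cells and between 85.8 and 93.4% in HeyA8 cells, so the summed level mainly follows MT2A.

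**Figure D2:**
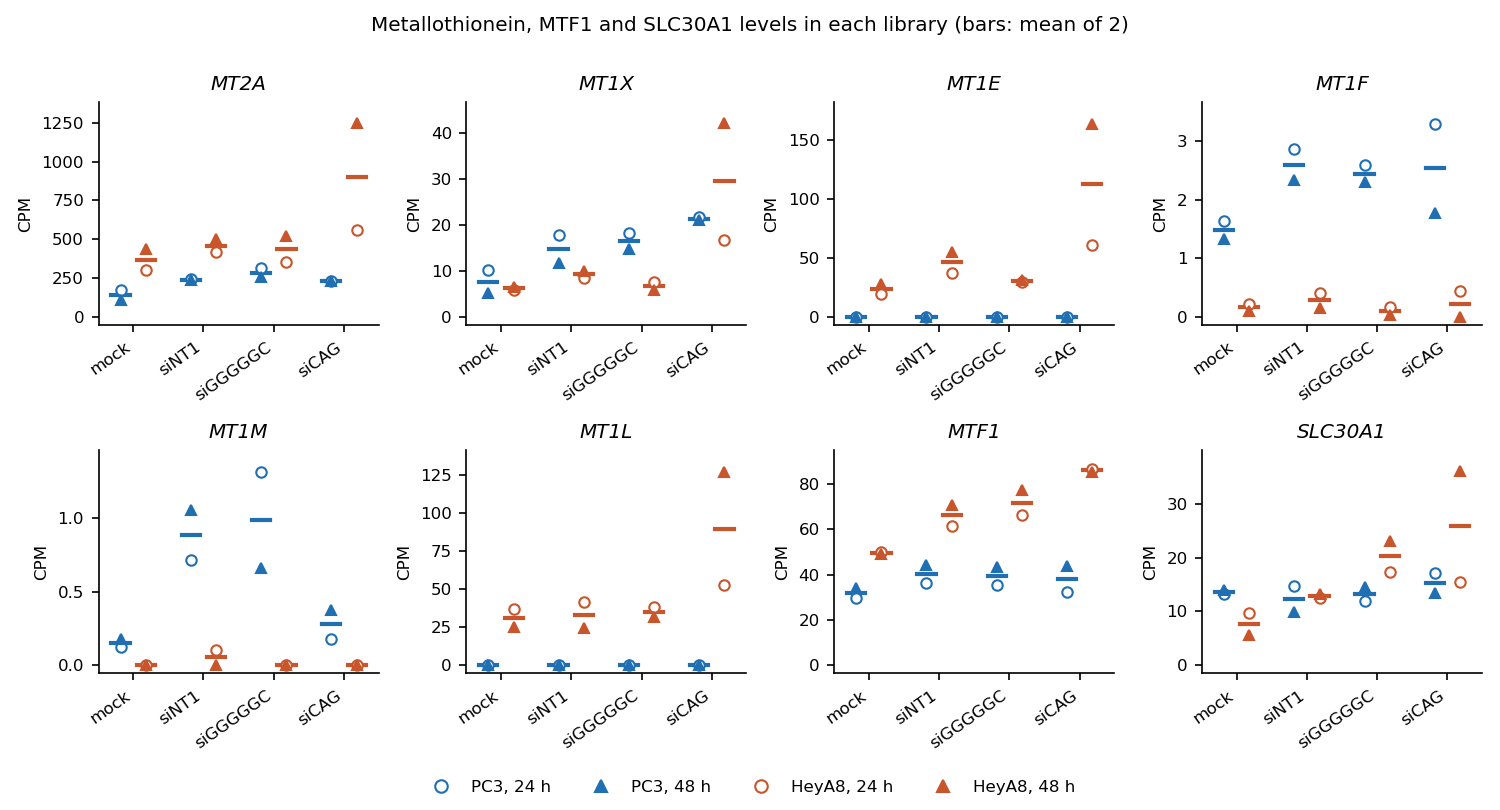
CPM (linear axes from 0) of MT2A, MT1X, MT1E, MT1F, MT1M, the pseudogene MT1L, MTF1 and SLC30A1 in every library by condition, with open circles for 24 h, triangles for 48 h and bars for the mean of the 2. In HeyA8 cells the siCAG library of 48 h was the highest one for MT2A, MT1X, MT1E, MT1L and SLC30A1, and in PC3 cells the mock libraries were the lowest ones for MT2A and MT1X.

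It was next determined whether the control siRNA itself was accompanied by a change against mock-treated cells. In PC3 cells MT2A, the main metallothionein of most tissues, had 173 CPM at 24 h and 109 CPM at 48 h in mock-treated cells, and 242 and 239 CPM after siNT1. After siGGGGGC its level was 314 and 255 CPM, and after siCAG it was 231 and 232 CPM. Both mock libraries therefore lay below all 6 transfected ones. In bulk RNA, a change in the share of expressing cells and a change per cell cannot be told apart. MT1X was lowest in mock-treated cells as well, with 10.1 and 5.20 CPM in mock-treated cells, 17.7 and 11.7 CPM after siNT1, 18.3 and 14.8 CPM after siGGGGGC, and 21.6 and 21.0 CPM after siCAG. MT1M was low everywhere, with 4 and 6 reads in the mock libraries, 23 and 33 after siNT1, 42 and 21 after siGGGGGC, and 6 and 12 after siCAG. MT1M reached the read minimum of the filter (10 reads at the median depth) in both siNT1 and both siGGGGGC libraries and in the siCAG library of 48 h, and in neither mock library. It was thus tested only because of the groups in which it was high, and it is left out of the counts of members against mock. Of the 5 other members tested in PC3 cells, 3 (MT1F, MT1X and MT2A) had all transfected libraries above both mock libraries, as did 7.56% of all 15136 genes tested.

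In edgeR's quasi-likelihood test of all 8 PC3 libraries, with siRNA and time point as terms, the log2 fold change of siNT1 over mock was 0.81 ± 0.18 (SE) for MT2A, 0.97 ± 0.24 for MT1X, 2.52 ± 0.63 for MT1M and 0.81 ± 0.30 for MT1F. None of them passed the threshold of a Benjamini-Hochberg adjusted p of 0.05 (adjusted p = 0.200 for MT2A, 0.238 for MT1X and MT1M, 0.465 for MT1F). MTF1 had a log2 fold change of 0.33 ± 0.15 and SLC30A1 one of -0.15 ± 0.26, and neither passed. Over all genes, 35 of 15136 (0.231%) were called in this comparison. DESeq2, which called 1.84% of all genes here, called MT1X (adjusted p = 0.0341) and MT2A (adjusted p = 0.0268). In edgeR on the 4 mock and siNT1 libraries alone, 1.73% of all genes were called, MT1X among them (adjusted p = 0.0425). A fit of 4 libraries leaves a single residual degree of freedom, so here and below its p-values rest mainly on spread pooled over genes.

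Against the same mock libraries, the toxic siRNA gave calls for the metallothioneins in PC3 cells. The control siRNA had log2 fold changes of 0.81 ± 0.18 for MT2A and 0.97 ± 0.24 for MT1X over mock, without passing. With siGGGGGC, MT2A rose by a log2 fold change of 1.03 ± 0.18 (edgeR adjusted p = 0.0124) and MT1X by 1.16 ± 0.24 (adjusted p = 0.0183), both in both libraries against both mock libraries. MT1F had a log2 fold change of 0.73 ± 0.30 (adjusted p = 0.115). Leaving MT1M aside, 2 of 5 members were called, where 21.1% of all genes were. MT1M also passed, with 2.70 ± 0.62 (adjusted p = 0.0246), but by the filter above it could enter the test only through high transfected libraries, and it was not tested with a minimum of 50 reads on average. With siCAG, MT1X rose by 1.53 ± 0.24 (adjusted p = 0.0228), and MT2A with 0.73 ± 0.18 did not pass (adjusted p = 0.0783). Here MT1X was the only member called, and 2.58% of all genes were. MTF1 and SLC30A1 were called in neither, with log2 fold changes between -0.03 and 0.31. The comparisons with mock share the mock libraries, so they are not independent of each other.

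Set against the control siRNA, nothing was called among the members in PC3 cells. MT2A had 241 ± 1.95 CPM (SD, n = 2) after siNT1, 284 ± 42.1 CPM after siGGGGGC and 231 ± 1.00 CPM after siCAG. The log2 fold change of siGGGGGC over siNT1 was 0.23 ± 0.18 for MT2A, 0.19 ± 0.24 for MT1X, 0.17 ± 0.51 for MT1M, -0.08 ± 0.29 for MT1F, -0.03 ± 0.15 for MTF1 and 0.12 ± 0.26 for SLC30A1. In this comparison 9.67% of all genes were called, and 0 of the 6 members were. After siCAG the members also lay on both sides of siNT1, with a log2 fold change of 0.56 ± 0.24 for MT1X, -1.69 ± 0.57 for MT1M and -0.07 ± 0.18 for MT2A. None of these passed (edgeR adjusted p = 0.360, 0.260 and 0.889), where 1.2% of all genes were called. In the edgeR fit of the 4 siCAG and siNT1 libraries alone, MT1X was called (adjusted p = 0.0333), but so were 2346 of 14669 genes (16%). MT1M was called as well (adjusted p = 0.0314), although among these libraries it passed the filter through siNT1, in which it was high.

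**Figure D3:**
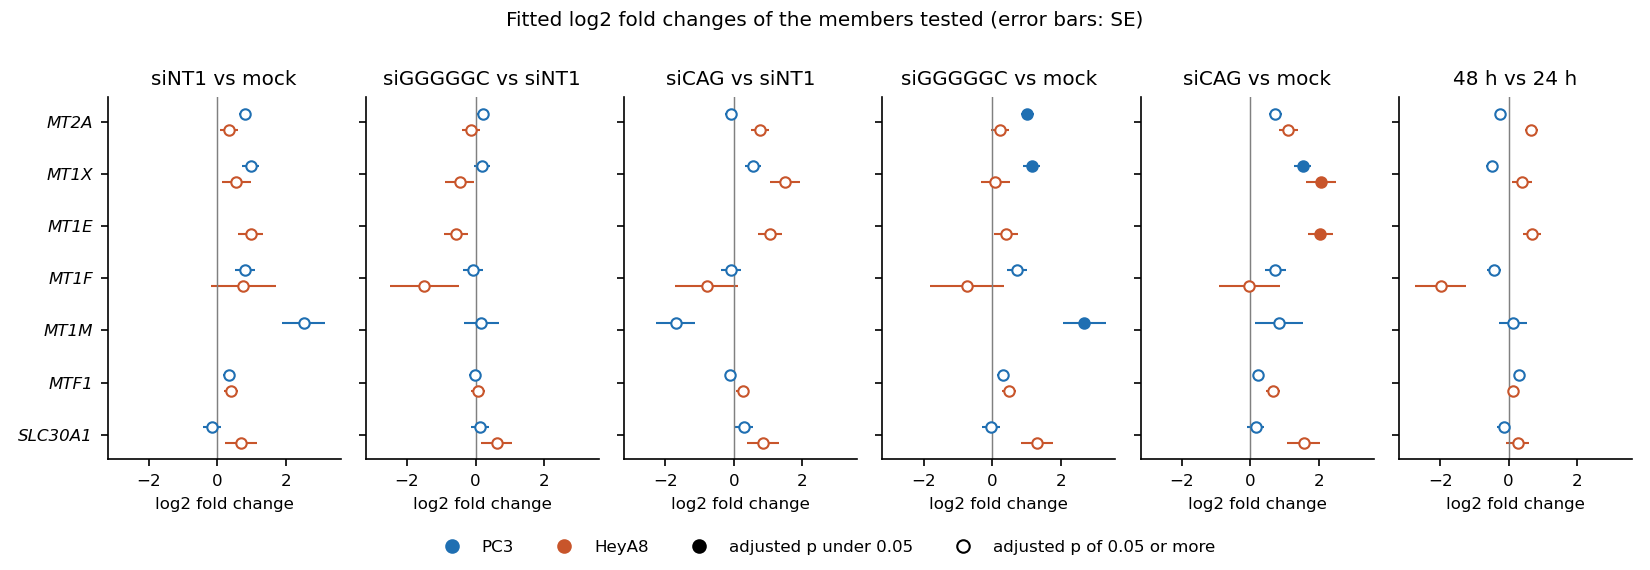
Fitted log2 fold change of each member tested (x axis), with its SE as error bar, in 6 comparisons for PC3 and HeyA8. Filled points have an edgeR adjusted p under 0.05. The filled points are MT2A, MT1X and MT1M for siGGGGGC over mock in PC3, MT1X for siCAG over mock in both lines and MT1E for siCAG over mock in HeyA8.

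HeyA8 cells showed their largest metallothionein levels after siCAG. MT1E, which PC3 cells lacked, had 19.2 CPM at 24 h and 28.1 CPM at 48 h in mock-treated cells, and 37.6 and 55.5 CPM after siNT1. It had 30.0 and 31.2 CPM after siGGGGGC and 61.1 and 164 CPM after siCAG. Both siCAG libraries thus lay above the 6 others, and the siGGGGGC libraries lay between mock and siNT1. MT1X had 5.94 and 6.59 CPM in mock-treated cells, 8.36 and 10.1 CPM after siNT1, 7.50 and 5.87 CPM after siGGGGGC, and 16.7 and 42.1 CPM after siCAG. MT2A had 299 and 436 CPM in mock-treated cells, 417 and 500 CPM after siNT1, 356 and 523 CPM after siGGGGGC, and 557 and 1247 CPM after siCAG. For each of these 3 genes the siCAG library of 48 h was the highest of the 8, and both siCAG libraries were above the rest. Both siCAG libraries were also above the 6 others for MTF1, and for 22.2% of all genes.

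Despite this, the test against siNT1 called none of them. The log2 fold change of siCAG over siNT1 in HeyA8 cells was 1.07 ± 0.35 (SE) for MT1E (edgeR adjusted p = 0.107), 1.50 ± 0.43 for MT1X (adjusted p = 0.0777) and 0.76 ± 0.27 for MT2A (adjusted p = 0.124). MT1F, at 0 to 12 reads, had -0.79 ± 0.92. Of all 13872 genes tested in HeyA8 cells, 7.81% were called in this comparison, and 0 of the 6 members. The median log2 fold change of the 4 metallothioneins tested was 0.91, against -0.01 for all genes. DESeq2 called MT1E (adjusted p = 0.0488) and MT1X (adjusted p = 0.0126), and 19.2% of all genes. In edgeR the log2 fold changes moved with the siCAG library that was left out. In such a fit siCAG is a single library, assumed to vary like the other groups, and about as many genes were called whichever one was left out. Without the library of 24 h, 31.5% of all genes were called, among them MT1E (1.56, adjusted p = 0.00185), MT1X (2.09, adjusted p = 0.00150), MT2A (1.13, adjusted p = 0.00225) and SLC30A1 (1.45, adjusted p = 0.0178). Without that of 48 h, 32.9% of all genes were called and no member was, with 0.43, 0.69 and 0.32 for MT1E, MT1X and MT2A.

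Against mock, siCAG raised MT1E by a log2 fold change of 2.04 ± 0.37 (edgeR adjusted p = 0.0264) and MT1X by 2.05 ± 0.44 (adjusted p = 0.0401) in HeyA8 cells. MT1F reached the read minimum of the filter in neither mock library, only in 1 siNT1 and 1 siCAG library, and is left out of the counts against mock. Of the 5 other members 2 were called, where 8.97% of all genes were. MT2A with 1.11 ± 0.27 did not pass (adjusted p = 0.0531). The siGGGGGC libraries were not called against mock for any member, with 0.40 ± 0.35 for MT1E, 0.10 ± 0.43 for MT1X and 0.22 ± 0.27 for MT2A. No gene of 13872 (0%) was called there, although 1156 had an unadjusted p under 0.05.

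The control siRNA and the toxic siRNA gave no calls in HeyA8 cells in the edgeR fit with the filter and the time term, and other settings did give calls. For siNT1 over mock, the log2 fold change was 0.97 ± 0.35 for MT1E, 0.55 ± 0.42 for MT1X and 0.35 ± 0.27 for MT2A. By edgeR 0 of the 5 members counted against mock and 0 of 13872 genes were called. At an unadjusted p under 0.05 there were 177 genes, and DESeq2 called 1 gene. On the 4 mock and siNT1 libraries alone, edgeR called 1574 genes (11.8%). Among them were MT1E (0.98, adjusted p = 1.14e-16), MT1X (0.56, adjusted p = 0.0171), MT2A (0.34, adjusted p = 0.0023), MTF1 (0.41, adjusted p = 0.000298) and SLC30A1 (0.77, adjusted p = 5.66e-05). With a single residual degree of freedom, these p-values rest mainly on pooled spread and not on a gene's own replicates. In the edgeR fit of all 8 libraries the unadjusted p of MT1E was 0.0294. Of the 5 members counted against mock, 3 (MT1E, MTF1 and SLC30A1) had all 6 transfected libraries above both mock libraries, where 3.58% of all genes did. For siGGGGGC over siNT1, MT1E had a log2 fold change of -0.58 ± 0.35, MT1X -0.45 ± 0.42 and MT2A -0.13 ± 0.27. Again 0 members and 0 genes were called by edgeR, with 1352 genes at an unadjusted p under 0.05 and 318 called by DESeq2. On the 4 siGGGGGC and siNT1 libraries alone edgeR called 1180 genes (8.86%), and without the siCAG libraries 477, with no member among them in either.

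MTF1, the transcription factor itself, spanned a narrower range. In HeyA8 cells it had 50.2 and 49.2 CPM at 24 and 48 h in mock-treated cells, 61.4 and 70.9 CPM after siNT1, 66.3 and 77.3 CPM after siGGGGGC, and 86.6 and 85.5 CPM after siCAG. In PC3 cells it had 29.8 and 34.0 CPM in mock-treated cells and between 32.1 and 44.2 CPM in the 6 transfected libraries. The order mock, siNT1, siGGGGGC and siCAG was seen in HeyA8 cells at both time points, as it was for 1.48% of all genes, and not in PC3 cells. The log2 fold change of siCAG over mock in HeyA8 cells was 0.66 ± 0.20 (edgeR adjusted p = 0.0887), and that over siNT1 was 0.25 ± 0.20. The MTF1 transcript holds 4 GCCCCC sites in its 3′ UTR and 1 in its coding sequence, that is, the match to the siGGGGGC seed. At least 1 such site is present in the longest 3′ UTR of 30.01% of 19172 genes. With siGGGGGC over siNT1, MTF1 moved by -0.03 ± 0.15 in PC3 and 0.08 ± 0.20 in HeyA8 cells. Among the other members, the longest annotated 3′ UTR of MT2A holds 1 such site and those of the rest hold none. For MT2A this UTR (309 bases) and the coding sequence (186 bases) are together longer than the annotated transcript used here (401 bases). The UTR searched is therefore not that of this transcript. Whether this transcript of MT2A holds the site was not tested. The longest run of CTG repeats was 2 in each of the 8 members. No share over all genes was taken for such runs, and whether siCAG acts on them was not tested.

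SLC30A1, which pumps zinc out of the cytosol, stayed between 9.82 and 17.2 CPM in all 8 PC3 libraries, and the conditions overlapped. In HeyA8 cells it had 9.75 and 5.57 CPM in mock-treated cells and 12.4 and 13.1 CPM after siNT1. It had 17.4 and 23.0 CPM after siGGGGGC and 15.6 and 36.2 CPM after siCAG. Both siRNAs were above siNT1 at both time points there, and siNT1 was above mock. Of all genes, 28.4% had both siGGGGGC libraries above both of siNT1, 33% both siCAG libraries above them, and 19.5% both siNT1 libraries above mock. The log2 fold change of siGGGGGC over siNT1 was 0.61 ± 0.46 (edgeR adjusted p = 0.725) and that of siCAG over siNT1 0.86 ± 0.47 (adjusted p = 0.266), so neither passed. Against mock the values were 1.32 ± 0.47 (adjusted p = 0.531) and 1.56 ± 0.48 (adjusted p = 0.0900).

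Because MTF1 acts through short DNA elements, the promoters of the members were searched for their core. The letters TGCACNC and TGCGCNC were searched on both strands in the 250 bases before the RefSeq transcription start (GRCh38.p14), which the RefSeq table holds for MT2A, MT1X, SLC30A1 and MTF1. Matches are in capitals, as read on the strand of the gene. The MT2A sequence spans chr16:56608334-56608583, that of MT1X chr16:56682220-56682469, both on the plus strand, and that of SLC30A1 chr1:211579162-211579411 on the minus strand. These 3 are shown because they hold matches, and that of MTF1 held none.
MT2A: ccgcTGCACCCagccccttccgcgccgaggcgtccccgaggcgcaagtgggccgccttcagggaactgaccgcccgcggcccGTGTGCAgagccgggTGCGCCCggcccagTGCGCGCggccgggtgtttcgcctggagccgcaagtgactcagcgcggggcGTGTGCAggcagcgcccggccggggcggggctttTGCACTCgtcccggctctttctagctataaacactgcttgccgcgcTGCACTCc
MT1X: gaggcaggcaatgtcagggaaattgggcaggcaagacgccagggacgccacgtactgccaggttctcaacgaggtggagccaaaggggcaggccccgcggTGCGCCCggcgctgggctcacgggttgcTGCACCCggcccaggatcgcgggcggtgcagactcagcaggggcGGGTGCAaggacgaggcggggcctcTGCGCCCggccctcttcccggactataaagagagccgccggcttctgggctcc
SLC30A1: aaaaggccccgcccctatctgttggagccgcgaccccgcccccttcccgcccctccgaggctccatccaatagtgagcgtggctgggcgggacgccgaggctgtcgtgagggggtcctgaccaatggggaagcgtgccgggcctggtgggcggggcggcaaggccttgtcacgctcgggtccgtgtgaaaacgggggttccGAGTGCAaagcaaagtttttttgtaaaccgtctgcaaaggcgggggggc
MT2A had 7 matches, of which the nearest began 8 bases before the start. MT1X had 4 matches, beginning 53, 78, 122 and 150 bases before the start. SLC30A1 had 1 match, 49 bases before the start, and MTF1 had 0. Of 35116 promoters of the same length, 24.829% held at least 1 match, 0.37% at least 4 and 0.031% at least 7. The letters are a description of the sequence, and no binding was measured.

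The time points were compared within the same fits, where time and the change of medium cannot be told apart. In HeyA8 cells MT2A was higher at 48 h than at 24 h in 4 of 4 conditions, with a log2 difference of 0.66 ± 0.19 (edgeR adjusted p = 0.724), and so was MT1E, with 0.68 ± 0.25 (adjusted p = 0.724). A higher level in all 4 conditions was seen for 8.61% of all genes there. MT1F, at 0 to 12 reads, was lower at 48 h in 4 of 4 (-1.99 ± 0.73, adjusted p = 0.724), as were 12.2% of all genes. It reached the read minimum of the filter in 2 libraries of 24 h and in none of 48 h, so it was tested only through the time point at which it was high. In PC3 cells MT2A was lower at 48 h in 3 of 4 conditions (-0.25 ± 0.13, adjusted p = 0.422) and MT1X in 4 of 4 (-0.48 ± 0.17, adjusted p = 0.334), as was MT1F in 4 of 4 (-0.43 ± 0.21). A lower level in all 4 conditions was seen for 9.83% of all genes. MTF1 was higher at 48 h in 4 of 4 in PC3 cells (0.29 ± 0.11, adjusted p = 0.340), as were 13.1% of all genes. By edgeR, 4 of 15136 genes (0.0264%) were called for time in PC3 cells. In HeyA8 cells 0 of 13872 were, with 879 at an unadjusted p under 0.05 and 61 by DESeq2. None of the members was called in these fits. On the 4 mock and siNT1 libraries of HeyA8 alone, edgeR called 12% of all genes for time. Among them were MT1E (0.56, adjusted p = 8.70e-06) and MT2A (0.41, adjusted p = 0.000114). As in the other fits of 4 libraries, these p-values rest mainly on spread pooled over genes.

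MT1E and its neighbour MT1L did not keep a fixed ratio in HeyA8 cells. The reads of MT1E over those of MT1L were 0.526 at 24 h and 1.13 at 48 h in mock-treated cells, 0.908 and 2.31 after siNT1, 0.783 and 0.986 after siGGGGGC, and 1.16 and 1.29 after siCAG. The ratio was thus higher at 48 h in each of the 4 conditions. Since the annotated MT1L transcript, which is shorter than the gene model counted, shares its sequence with other annotated genes, the counts of MT1L are uncertain.

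Whether the lines differed in their responses was tested with interaction terms in a joint fit of the 16 libraries. This was possible for MT1X, MT2A, MTF1 and SLC30A1, which had a mean of at least 10 reads in both lines. For siCAG over siNT1, the log2 fold change in PC3 minus that in HeyA8 was -0.94 ± 0.34 for MT2A (edgeR adjusted p = 0.241) and -1.03 ± 0.50 for MT1X (adjusted p = 0.376). None of the 4 was called, and 0.636% of 15887 genes were. For siGGGGGC over siNT1 the difference was 0.34 ± 0.33 for MT2A and 0.64 ± 0.50 for MT1X. No gene was called there, with 1054 at an unadjusted p under 0.05 and 15 by DESeq2. For 48 h over 24 h the difference was -0.87 ± 0.24 for MT2A (unadjusted p = 0.00382, adjusted p = 0.841), the furthest of the 4 members from 0 relative to its error. No gene was called for time either, with 854 at an unadjusted p under 0.05 and 13 by DESeq2.

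The other genes that move zinc were read from lists of the SLC30 family, which lowers cytosolic zinc, and the SLC39 family, which raises it. Of 9 further SLC30 genes 5 were tested in each line, and none was called in any comparison. Of 14 SLC39 genes 11 were tested in each line. SLC39A1, the importer ZIP1, was the only one called for siCAG over siNT1, and it fell in both lines. That is 1 of 11 in each line, where 1.2% of all genes were called in PC3 and 7.81% in HeyA8 cells. In PC3 cells it had 127 and 129 CPM after siNT1 and 44.6 and 40.6 CPM after siCAG, a log2 fold change of -1.60 ± 0.15 (edgeR adjusted p = 0.00290). In HeyA8 cells it had 87.1 and 102 CPM after siNT1 and 26.4 and 14.2 CPM after siCAG, a log2 fold change of -2.36 ± 0.33 (adjusted p = 0.0154). After siGGGGGC in PC3 cells, SLC39A1 rose to 229 and 241 CPM (0.87 ± 0.14, adjusted p = 0.0188) and SLC39A9, a Golgi and surface zinc importer, rose by 0.71 ± 0.17 (adjusted p = 0.0443), which makes 2 of 11 where 9.67% of all genes were called.

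**Figure D4:**
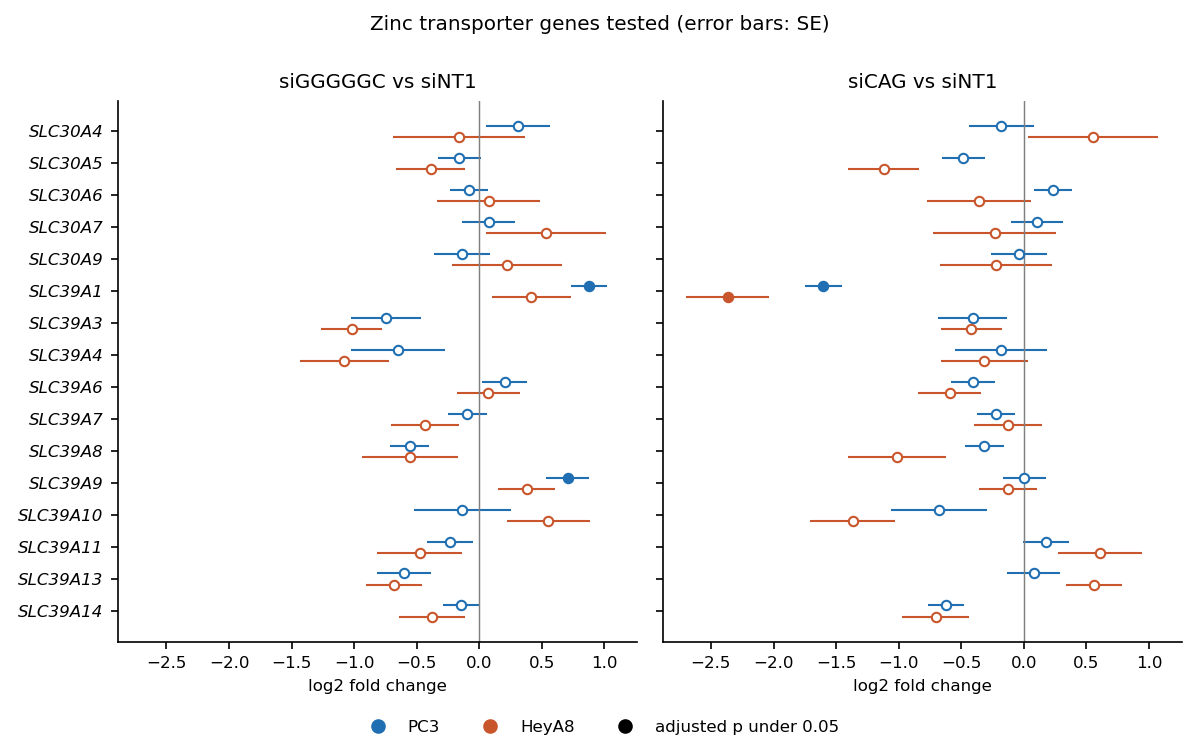
Fitted log2 fold change (x axis) with SE of the SLC30 and SLC39 zinc transporter genes tested, for siGGGGGC and siCAG over siNT1 in PC3 and HeyA8. Filled points have an edgeR adjusted p under 0.05. SLC39A1 is the gene furthest to the left after siCAG in both lines, and SLC39A1 and SLC39A9 are the filled points after siGGGGGC.

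Lists of genes that share inducers with the metallothioneins were read beside them. Among 8 NRF2 targets, which answer to oxidative stress, HMOX1 (heme oxygenase 1) was called for siNT1 over mock in PC3 cells. It had 15.5 and 9.18 CPM in mock-treated cells and 71.8 and 37.4 CPM after siNT1 (2.13 ± 0.24, edgeR adjusted p = 0.0319). It was the only gene of these lists called in that comparison, where 0.231% of all genes were. The metallothioneins were above mock there without passing. After siGGGGGC over siNT1 in PC3 cells, 3 of the 8 rose: NQO1 (1.17), SRXN1 (0.89) and OSGIN1 (0.84), where 9.67% of all genes were called. Over mock, 5 of the 8 rose after siGGGGGC in PC3 cells, the comparison in which MT2A and MT1X were called and 21.1% of all genes were. They were HMOX1 (1.48), NQO1 (1.25), OSGIN1 (1.10), SRXN1 (0.90) and GCLC (0.65). After siCAG over siNT1 in HeyA8 cells, 2 of the 8 rose, namely SLC7A11 (2.15) and TXNRD1 (1.09), where 7.81% of all genes were called. The median log2 fold change of the list there was 0.78.

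Further lists were read in the same way against siNT1, where the share of all genes called was 7.81% for siCAG in HeyA8, 1.2% for siCAG in PC3 and 9.67% for siGGGGGC in PC3 cells. A single call in a list of 7 to 11 genes is close to the first and the last of these shares. Among 11 genes of iron handling, FTL (1.69) and FTH1 (1.21), the ferritin chains, rose after siCAG over siNT1 in HeyA8 cells. The importer SLC11A2 fell there by 1.01 on the log2 scale, and by 1.00 in PC3 cells. Of 11 copper genes, the copper pump ATP7B rose in HeyA8 cells after siCAG (1.80). In PC3 cells after siGGGGGC, SCO1 rose (0.92) and the pump ATP7A fell by 1.27. Of 7 glucocorticoid targets tested, TSC22D3 (2.54) and KLF9 (2.36) rose and FKBP5 fell by 1.78 after siCAG in HeyA8 cells, and DUSP1 rose (1.18) after siGGGGGC in PC3 cells. Of 8 heat shock genes, HSP90AA1, HSPA1B and HSPH1 fell by 1.85, 1.39 and 1.28 after siCAG in HeyA8 cells, and HSPA1B fell by 1.17 in PC3 cells. Of 8 factors that work with MTF1 or bind near it, CREBBP, a histone acetylase, fell by 1.16 after siGGGGGC in PC3 cells.

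The genes that flank the cluster were read in the same comparisons. Of 11 genes read 8 were tested in each line. After siCAG over siNT1 in HeyA8 cells BBS2 rose (1.35 ± 0.28, edgeR adjusted p = 0.0393), NUDT21, an mRNA cleavage factor, fell (-1.55 ± 0.31, adjusted p = 0.0365), that is, 2 of 8 where 7.81% of all genes were called, and the median over the 8 was -0.03, where that of the 4 metallothioneins was 0.91. In PC3 cells none of the 8 was called for siGGGGGC or siCAG over siNT1, where no metallothionein was called either. For siGGGGGC over mock, HERPUD1, an endoplasmic reticulum stress protein, rose (0.93 ± 0.17, adjusted p = 0.0140) as 1 of the 8, where 21.1% of all genes were called, and the median over the 8 was 0.05.

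Finally, the genes with the profile most like the members over the 8 libraries of a line were listed by Pearson's r of log2(CPM + 0.5) among genes with a mean of at least 1000 reads. In PC3 cells the summed metallothioneins were most alike to THBS1 (0.97), EPAS1 (0.97), SSR3 (0.97), YY1 (0.96) and MRPL32 (0.95), out of 6197 genes compared. In HeyA8 cells they were most alike to BEX4 (0.98), COMMD6 (0.98), APP (0.97), SRP14 (0.97) and PPME1 (0.97), out of 5758 genes. No gene was in both lists. MTF1 was most alike to KLF13, C1orf52 and STRADB in PC3 cells (0.93 to 0.96) and to KANK2, NKIRAS2 and PXDN in HeyA8 cells (0.95 to 0.97). SLC30A1 was most alike to CCDC90B, SYF2 and GDAP1 in PC3 cells (0.82 to 0.93) and to VHL, RIN2 and TET2 in HeyA8 cells (0.95 to 0.96). These are the highest values among all genes compared, over 8 points that share libraries and scaling, and they are a description.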

How the data were processed

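The values are raw counts of exonic reads per gene, as the authors deposited them for 16 libraries, with gene model lengths that the deposited file gives as well. Reads had been trimmed and aligned to hg38 by the authors (STAR is named in the submitters' notes) and counted with HTSeq. Strand use and the handling of reads that map to several genes are not given in the sources used here. The siGGGGGC libraries carry another name in their titles and were matched by their treatment label.

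Here, edgeR 4.0.16 (R 4.3.3) was fitted within each line to all 8 libraries after filterByExpr and TMM normalization, with siRNA and time point as terms of a quasi-likelihood model. Calls were made below an adjusted p of 0.05 (Benjamini-Hochberg, over all genes tested). The labels give time points and no replicate numbers, and the 24 and 48 h libraries of a condition were numbered 1 and 2, so time is the replicate block. Nothing in the labels says that they come from separate cultures. The study's methods describe different wells for 24 and 48 h and transfection in duplicate, whereas the labels give 1 library per condition and time point. The p-values measure the spread between these libraries, which also holds any difference of an siRNA effect between the time points. Interactions used all 16 libraries. CPM values are TMM-scaled over all 16 libraries. The limit of 3 reads that a count of 0 allows covers counting error only. The steps were tested on simulated data.

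The 8 genes and the gene lists were chosen with earlier results of these data known. Named were all 8 members, the most alike genes, and from each list up to 4 called genes with the largest change. More called genes were named from the list of NRF2 targets. Of the lists, 3 genes are not reported here and were left out of the counts and medians of their lists. Coding sequences came from GENCODE and promoters from RefSeq (GRCh38.p14), with Python 3.11.15. Of the 8 members, 4 had a promoter in the table, and MT1E, MT1F, MT1G and MT1M are named only. As alternatives, DESeq2 1.42.0, RLE size factors, 2 more filters, a fit without the time term, fits of the 4 compared libraries, mock as control and each library left out were tried. A fit without siCAG libraries was added after seeing the data.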

Additional observations from a re-analysis of the deposited data

How the results depend on the processing

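By edgeR no member was called for siGGGGGC or siCAG over siNT1, for siNT1 over mock or for time in the fits of 8 libraries. This held with RLE size factors and with both other filters. Without the replicate block it held for the comparisons of conditions, and that fit has no term for time. DESeq2 on the same libraries called MT1X and MT2A for siNT1 over mock in PC3 and MT1E and MT1X for siCAG over siNT1 in HeyA8. With 2 libraries a condition, counts of called genes moved with most settings, and the cause was not tested. With DESeq2 the counts in PC3 were 2819 (siGGGGGC over siNT1), 572 (siCAG), 268 (siNT1 over mock) and 208 (time), in HeyA8 318, 2657, 1 and 61, and for the difference between lines 15, 671 and 13 (time). Without the filter, 82 genes were called for siNT1 over mock and 9 for time in PC3, 18 for siGGGGGC in HeyA8 and 2 for the difference in time. With a mean of at least 50 reads, 18 and 2 were called in PC3. No replicate block gave 625 genes for siGGGGGC and 6 for siNT1 over mock in PC3, and 3 for siGGGGGC in HeyA8. It changed no call of a member. The 4 compared libraries alone gave 438, 2346 and 253 genes in PC3 and 1180, 580 and 1574 in HeyA8, and mock and siNT1 alone gave 10 and 1591 for time. Against mock, 3200 (siGGGGGC) and 391 (siCAG) genes were called in PC3. Without siCAG libraries, 11 genes were called for siNT1 over mock and 0 for time in PC3, and 477 for siGGGGGC and 6 for time in HeyA8.

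Log2 fold changes that changed sign with mock as control were those of MT1F (0.73), MTF1 (0.31) and SLC30A1 (-0.025) for siGGGGGC in PC3, of MT1F (0.73), MT1M (0.83), MT2A (0.73) and MTF1 (0.23) for siCAG in PC3, and of MT1E (0.40), MT1X (0.10) and MT2A (0.22) for siGGGGGC in HeyA8. For time, SLC30A1 in HeyA8 turned to -0.32 with mock and siNT1 alone and -0.078 without siCAG, and MT1M in PC3 to -0.094 without siCAG.

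Leaving out 1 library at a time, calls ranged from 0 to 3702 for siGGGGGC, from 30 to 125 for siCAG, and from 0 to 6 for time in PC3, and were 0 throughout for siNT1 over mock. In HeyA8 they ranged from 42 to 4690 for siCAG and from 0 to 11 for time. Log2 fold changes that crossed 0 ranged in PC3 from -0.33 to 0.10 (MT1F), -0.72 to 0.86 (MT1M) and -0.25 to 0.44 (SLC30A1) for siGGGGGC, from -0.45 to 0.22 (MT1F) and -0.23 to 0.10 (MT2A) for siCAG, from -0.48 to 0.11 for SLC30A1 with siNT1 over mock, and for time from -0.10 to 0.66 (MT1M) and -0.32 to 0.00397 (SLC30A1). In HeyA8 they ranged from -0.37 to 0.14 for MT2A with siGGGGGC, from -0.13 to 1.34 for MT1F with siNT1 over mock, and from -0.078 to 0.61 for SLC30A1 with time. In the mock libraries alone the 6 metallothioneins summed to a mean of 150 CPM in PC3, where all 8 libraries gave 242 CPM.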
